A study of Mus musculus with 6 samples.

Results

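The transcripts described here are 9 genes of the B-cell lineage, out of 49585 genes counted in bulk RNA of sorted mouse microglia: Ighm, Ighd, Igkc, Cd79a, Cd79b, Ms4a1, Blnk, Btk and Pax5. They were chosen because measured values of these same libraries had already shown Ighm and Cd79b to be low in the libraries labelled IRF8KO. Their values between the groups are therefore a description, and where the text says whether one of them passed the threshold used for all genes, this supports nothing, since it tests the values that chose them. The set holds the constant regions of the immunoglobulin chains, the signalling subunits and cytoplasmic kinase and adaptor of the B-cell receptor, a B-cell surface marker and a B-lineage transcription factor.

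Microglia are the resident macrophages of the brain. Male mice aged 3 months were studied, 3 of the WT genotype and 3 of the genotype labelled IRF8KO, a name for loss of the Irf8 gene. IRF8 is a transcription factor of macrophages, dendritic cells and B cells. Per the labels, each library came from 1 brain, the cells were taken out of the tissue with no enzyme and collected by FACS in TRIzol, and cDNA of polyadenylated RNA was made with the SMART-Seq v4 kit and tagged with Nextera XT. The gate of the sort, the strain and the part of Irf8 that was removed are not given in the sources used here.

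In a B cell, a heavy chain and a light chain form the antigen-binding part of the receptor, and CD79A and CD79B, which need each other to reach the cell surface, carry the signal inward through their ITAM motifs. The kinases LYN and SYK then act through the adaptor BLNK, the kinase BTK and the phospholipase PLCG2. A complete chain needs V, D and J gene segments to be joined in the DNA of the cell, which takes place in lymphocytes. The constant region can also be transcribed from an unjoined allele, and such germline transcripts are known from lymphoid cells before joining. BTK, BLNK, SYK and PLCG2 are also used by myeloid cells, where the adaptors TYROBP and FCER1G carry the ITAMs.

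Total gene counts ranged from 3658917 to 10859529 in WT and from 8994860 to 11098363 in the libraries labelled IRF8KO. WT replicate 3 stood apart, with 2.44% of its uniquely mapped reads outside genes against 7.70% and 7.52% in WT replicates 1 and 2 and 3.86% to 6.27% in the other group. Irf8 itself was counted in every library, at 1016 ± 336 CPM in WT and 747 ± 99.9 CPM in the other group (SD, n = 3 each), so its counts do not check the label, and the phrase "labelled IRF8KO" is kept throughout. CPM are counts per M of a library size scaled by TMM, and a log2 fold change is IRF8KO minus WT. A gene was called where the edgeR quasi-likelihood test over 11041 tested genes gave a Benjamini-Hochberg adjusted p under 0.05. Of all tested genes, 9.46% were called lower and 9.64% higher in the libraries labelled IRF8KO, and in 17.9% every WT library lay above every IRF8KO library. Over these genes the log2 fold change had a median of -0.11.

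Among the 9 transcripts, those of Ighm and Cd79b were abundant in WT and low in the libraries labelled IRF8KO. Those of the adaptor gene Blnk and the kinase gene Btk were present in both groups, and Igkc, Ms4a1 and Pax5 had no count anywhere. Of the 9 genes, 5 passed the filter on low counts. Of these 5, 3 were called lower (against 9.46% of all tested genes), 0 were called higher (against 9.64%) and 2 were not called. In 4 of the 5, every WT library lay above every IRF8KO library, against 17.9% of all tested genes. The median log2 fold change of the 5 was -2.15, and since the genes were chosen on this contrast nothing is read from these counts. In bulk RNA, fewer cells of a type and less RNA per cell cannot be told apart.

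**Figure D1:**
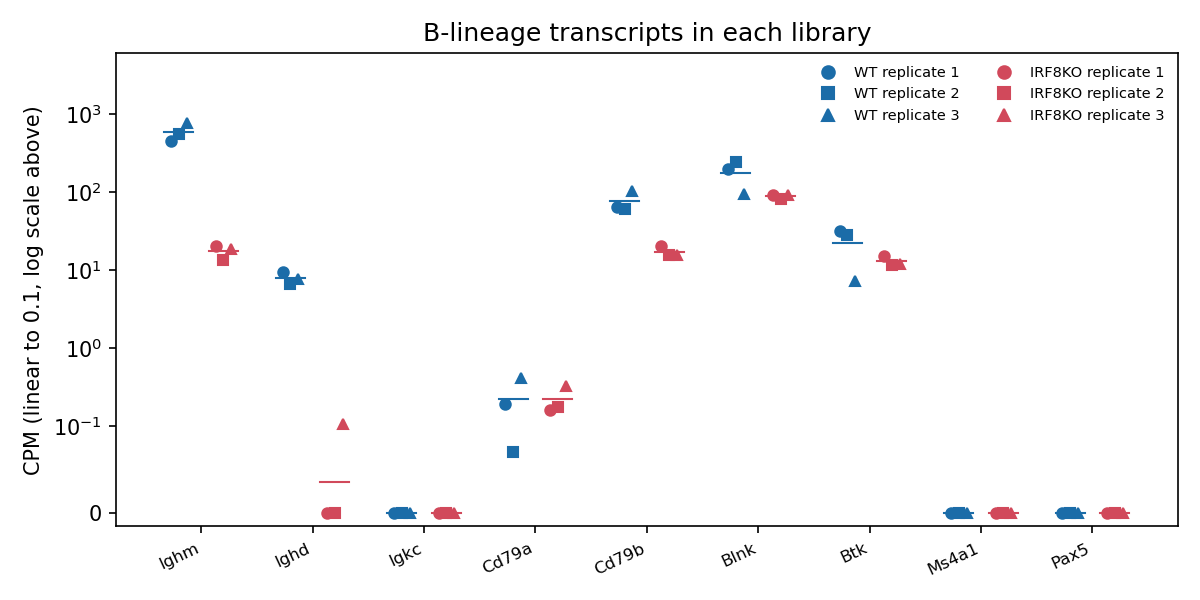
Level of the 9 B-lineage transcripts in each library, in CPM on an axis that is linear up to 0.1 and logarithmic above. Each symbol is 1 library (blue WT, red IRF8KO, shape by replicate) and each bar is the mean of 3; Ighm, Ighd and Cd79b separate the groups widely, Blnk narrowly, and Igkc, Ms4a1 and Pax5 lie at 0 in all 6 libraries.

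Ighm (ENSMUSG00000076617, GRCm38 chr12:113418558-113422730, minus strand) encodes the constant region of the μ heavy chain of IgM. WT replicates 1 to 3 had 2331, 7850 and 5488 counts of it, and IRF8KO replicates 1 to 3 had 128, 151 and 174. In CPM these were 454, 556 and 757 against 20.5, 13.6 and 18.9. All 3 WT libraries were high and all 3 others low, and the lowest WT library was far above the highest of the other group. The means were 589 ± 154 and 17.7 ± 3.65 CPM (SD, n = 3), 33.3-fold apart, with a log2 fold change of -5.06 (SE 0.36). Per kilobase of exon, Ighm ranked 90th of the 11041 tested genes in WT and 3258th in the libraries labelled IRF8KO. It took 0.0637%, 0.0723% and 0.0693% of gene counts in the WT libraries, a narrow range although their depths differed. In the other group the shares were 0.00142%, 0.00139% and 0.00157%.

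Ighd (ENSMUSG00000104213, chr12:113406604-113416324, minus strand) encodes the δ constant region and lies directly downstream of Ighm, with which it shares transcripts by alternative splicing in mature B cells. Its counts were 48, 94 and 56 in WT, and 0, 0 and 1 in the libraries labelled IRF8KO. In WT it stood at 9.34, 6.66 and 7.72 CPM, with a mean of 7.90 ± 1.35 (SD, n = 3). All 3 WT libraries held the transcript, and a count of 1 in IRF8KO replicate 3 was the whole signal of the other group. The ratio of the scaled group totals was 199, with an exact 95% interval of 35.2 to 7882 that covers counting error only. Within WT, Ighd made up 2.02%, 1.18% and 1.01% of the counts on Ighd and Ighm together. Per kilobase, Ighm exceeded Ighd 48.9-, 84.1- and 98.7-fold in WT replicates 1 to 3.

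Igkc (ENSMUSG00000076609, chr6:70726435-70726966, plus strand), the constant region of the κ light chain and the usual light-chain partner of μ in the mouse, had 0 counts in all 6 libraries. A count of 0 allows up to 3 counts per group, which is 0.113 CPM in WT and 0.113 CPM in the other group. Per kilobase, Ighm was therefore at least 1473-fold above Igkc in WT and at least 42.6-fold above it in the libraries labelled IRF8KO. The 4 λ constant genes were also at 0 throughout.

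The other immunoglobulin segments of the annotation were counted to see which parts of the loci the reads covered. Of the 115 heavy-chain V genes, none had a count in WT, and 1 of them, Ighv1-58, had 2 counts in IRF8KO replicate 1. All 100 κ and 3 λ V genes and all 5 κ and 5 λ J segments had 0 counts in every library. Over all 222 V genes, WT had 0 counts beside 15669 counts on Ighm. Of 17 heavy-chain D segments only Ighd4-1, which despite its symbol is a D segment and not part of Ighd, was counted, 8 times in WT replicate 2. Among 161 immunoglobulin pseudogenes WT had 0 counts, and the libraries labelled IRF8KO had 0, 7 and 1. Only reads with 1 mapped place were counted, so reads shared by near-identical V genes would not appear, and reads across a joined segment may fail to map.

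The heavy-chain J segments, which lie just upstream of Ighm, held more counts than the D and V segments, and their sequences are shown because reads were counted on them. They are given 5′ to 3′ on the coding strand in GRCm38, from GENCODE M21, and the capitals mark the TGGGG that begins the conserved tryptophan and glycine codons of framework 4. The counted feature of Ighj2 is longer than the segment printed, running from 113429468 to 113429567, so part of its counts may lie outside the letters shown.
Ighj1 (chr12:113429781-113429833, minus strand): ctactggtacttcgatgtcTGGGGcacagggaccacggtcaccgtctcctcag
Ighj2 (chr12:113429468-113429515, minus strand): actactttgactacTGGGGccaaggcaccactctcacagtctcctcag
Ighj3 (chr12:113429085-113429132, minus strand): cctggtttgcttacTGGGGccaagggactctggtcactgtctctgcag
Ighj4 (chr12:113428514-113428567, minus strand): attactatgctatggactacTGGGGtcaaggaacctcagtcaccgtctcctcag

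Counts on the 4 J segments together were 37, 129 and 68 in WT and 0, 6 and 4 in the libraries labelled IRF8KO, which is 234 against 10. Ighj1, the first of them, held most of these, with 28, 98 and 50 counts in WT and 0, 3 and 4 in the other group. Its level was 6.43 ± 0.848 CPM in WT and 0.234 ± 0.219 CPM in the other group (SD, n = 3), without overlap, at a log2 fold change of -4.60 (SE 0.85). Ighj2 had 4, 15 and 10 counts in WT and 0 in all 3 other libraries, which makes it at least 9.69-fold lower in total. Ighj3 (2, 5 and 3 against 0, 1 and 0) and Ighj4 (3, 11 and 5 against 0, 2 and 0) were below the filter. These segments are shorter than a typical read and may be read from the same molecules as Ighm, so no p-value is given for them and they were not compared with each other per length.

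Relative to Ighm, the J segments took a like share of reads in every WT library. Of the counts on J segments and Ighm together they made up 1.56% (exact 95% interval 1.10 to 2.15), 1.62% (1.35 to 1.92) and 1.22% (0.952 to 1.55) in WT replicates 1 to 3. In the libraries labelled IRF8KO the shares were 0 of 128 counts, which allows up to 2.84%, then 3.82% (1.42 to 8.13) and 2.25% (0.616 to 5.65). The intervals of the 2 groups overlap, but those of the libraries labelled IRF8KO rest on 0, 6 and 4 J counts. They are too wide to compare the groups, and a difference in this share was not tested. The constant genes of the switched isotypes were near 0, with 0, 7 and 3 counts on Ighg2b, 0, 1 and 0 on Ighg1 and 0, 3 and 0 on Ighg3 in WT, and 0 for all of them in the other group.

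**Figure D2:**
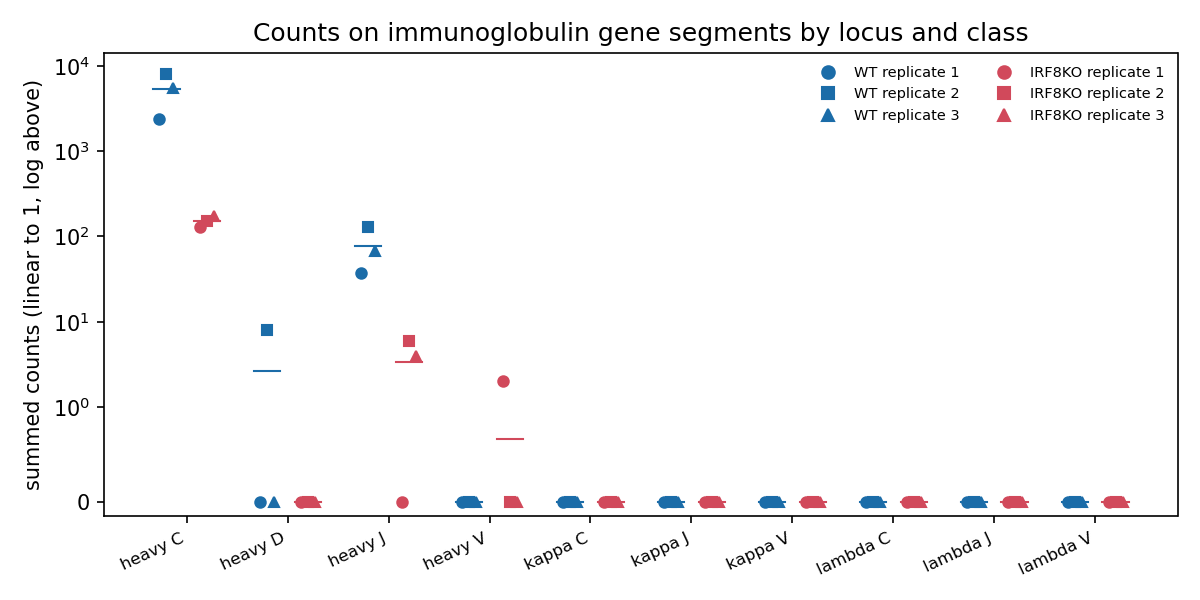
Summed counts on the annotated constant (C), diversity (D), joining (J) and variable (V) segments of the heavy, κ and λ loci, in each library, on an axis linear to 1 and logarithmic above. Each symbol is 1 library (blue WT, red IRF8KO) and each bar is the mean of 3; heavy C and J segments carry counts, and all κ and λ classes lie at 0.

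The receptor's signalling subunits differed from each other. Cd79b (ENSMUSG00000040592, chr11:106311341-106314762, minus strand) had 334, 864 and 739 counts in WT and 126, 172 and 146 in the libraries labelled IRF8KO. These are 65.0, 61.2 and 102 CPM against 20.2, 15.4 and 15.8. All 3 WT libraries lay above all 3 others, with WT replicate 3 the highest. The means were 76.0 ± 22.5 and 17.2 ± 2.66 CPM (SD, n = 3), 4.43-fold apart, with a log2 fold change of -2.15 (SE 0.31).

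Cd79a (ENSMUSG00000003379, chr7:24897381-24902197, plus strand), its obligate partner in B cells, was close to absent in both groups. It had 1, 1 and 3 counts in WT and 1, 2 and 3 in the libraries labelled IRF8KO, at 0.226 ± 0.174 and 0.222 ± 0.0902 CPM (SD, n = 3), and the groups overlapped. It did not pass the filter and was not tested. Per kilobase, Cd79b exceeded Cd79a 394-fold in the pooled WT counts and 75.3-fold in the pooled counts of the other group. By library the ratio was 340, 880 and 251 in WT and 128, 87.6 and 49.6 in the other group, each resting on 1 to 3 counts of Cd79a.

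The surface marker and the transcription factor that define B cells had no reads. Ms4a1 (ENSMUSG00000024673, chr19:11249675-11266241, minus strand), which encodes CD20, and Pax5 (ENSMUSG00000014030, chr4:44524757-44710487, minus strand), the factor that commits progenitors to the B lineage, had 0 counts in all 6 libraries. Per kilobase, Cd79b was at least 2792-fold above Ms4a1 in WT and at least 640-fold above it in the other group. For Blnk over Pax5 the bounds were 2508-fold and 1141-fold.

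Blnk (ENSMUSG00000061132, chr19:40928927-40994535, minus strand), the adaptor that links SYK to BTK and PLCG2, had 1011, 3395 and 686 counts in WT and 570, 910 and 837 in the libraries labelled IRF8KO. In CPM these were 197, 240 and 94.6 against 91.5, 81.7 and 90.8. The groups did not overlap, but WT replicate 3 lay close to the libraries labelled IRF8KO while WT replicates 1 and 2 were well above them. The means were 177 ± 74.8 and 88.0 ± 5.48 CPM (SD, n = 3), with a log2 fold change of -1.01 (SE 0.34), and Blnk was not called. Without WT replicate 3, the library that stood apart, the log2 fold change was -1.28 and Blnk was called, which was so in 7 of 15 alternative settings.

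Btk (ENSMUSG00000031264, chrX:134542336-134583570, minus strand), the TEC-family kinase downstream of BLNK, had 165, 392 and 53 counts in WT and 94, 130 and 112 in the other group. In CPM these were 32.1, 27.8 and 7.31 against 15.1, 11.7 and 12.1. The groups overlapped: WT replicates 1 and 2 were the highest of the 6 libraries and WT replicate 3 was the lowest. The means were 22.4 ± 13.2 and 13 ± 1.85 CPM (SD, n = 3), with a log2 fold change of -0.79 (SE 0.49), and Btk was not called. Without WT replicate 3 it was -1.17 and Btk was called, which was so in 1 of 15 alternative settings.

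RefSeq promoter windows of 300 bases (GRCm38.p6, around the start that RefSeq gives) were matched for 4 of the 9 genes, Cd79a, Blnk, Btk and Pax5. The RefSeq starts differ from those of GENCODE M21: only the Cd79a window holds the GENCODE start, those of Blnk and Btk lie inside the GENCODE gene, and that of Pax5 lies upstream of it. Both strands were searched for the ETS-IRF composite GGAANNGAAA, to which IRF8 binds with the ETS factor PU.1, for GAAANNGAAA, for the octamer ATGCAAAT bound by POU factors in B cells, for GAGGAAGT and for the ETS core GGAAGT, which GAGGAAGT contains. They occur in 2.72%, 3.44%, 1.74%, 3.20% and 23.8% of all 32851 promoters. None of the 4 held GGAANNGAAA, GAAANNGAAA or GAGGAAGT. The Blnk promoter held the octamer on its minus strand and GGAAGT at 2 places, and Cd79a held GGAAGT once. The Blnk sequence is shown, 5′ to 3′ in the direction of the gene, because it alone of the 4 held the octamer as well as GGAAGT, and the capitals mark these matches. A match is a description of the letters and not a bound site.
Blnk promoter (chr19:40994172-40994471, minus strand): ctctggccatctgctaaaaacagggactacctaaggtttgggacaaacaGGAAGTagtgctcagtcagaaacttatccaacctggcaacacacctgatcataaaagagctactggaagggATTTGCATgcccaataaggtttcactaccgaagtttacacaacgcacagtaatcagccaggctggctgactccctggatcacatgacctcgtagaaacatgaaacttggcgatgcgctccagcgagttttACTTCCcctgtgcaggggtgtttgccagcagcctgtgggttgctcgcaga

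Ordered by level per kilobase of exon, the WT libraries ran from Ighm (312 ± 81.7 CPM per kilobase, SD, n = 3) to Cd79b (53.1 ± 15.7), Blnk (29.6 ± 12.5), Btk (7.11 ± 4.2), Ighd (4.16 ± 0.711) and Cd79a (0.155 ± 0.119). The ranges of Ighm, Cd79b and Blnk did not overlap, although the lowest value of Cd79b (42.8) was close to the highest of Blnk (40.1), and those of Btk and Ighd overlapped. In the libraries labelled IRF8KO the order was Blnk (14.7 ± 0.915), Cd79b (12 ± 1.86), Ighm (9.36 ± 1.94) and Btk (4.12 ± 0.588). There the ranges of Blnk and Cd79b, and of Cd79b and Ighm, overlapped. The per-kilobase ratio of Ighm to Cd79b was 5.30, 6.89 and 5.63 in WT. For IRF8KO replicates 1 to 3 it was 0.771, 0.666 and 0.904, below the WT range in each.

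Other B-lineage genes were counted from a list of 30 that holds none of the 9. Of these 30, 17 had at most 5 counts in total. They included 13 with 0 counts in every library, among them Cr2, the complement receptor of mature B cells, Pou2af1, Blk and Rag1. Vpreb3 had 1, 0 and 1 counts in WT and 0 in the other group, while Vpreb1, a surrogate light-chain gene, had 0, 5 and 1 against 0, 4 and 6. Ebf1, an early B-cell factor, had 0, 1 and 0 against 0, 2 and 2. Of the 9 that passed the filter, 2 (22.2%) were called lower, 1 was called higher and 6 were not called, with a median log2 fold change of -0.42. Over all tested genes 9.46% were called lower and 9.64% higher and the median was -0.11. In 4 of the 9 (44.4%, against 17.9% of all genes) every WT library lay above every other library. The summed level of the list was 747 to 1196 CPM in WT and 894 to 1160 CPM in the other group, most of it Cd37, a tetraspanin of many leukocytes, which was not called (680 ± 239 against 875 ± 131 CPM).

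Fcrl1, an Fc receptor-like surface protein of B cells, had 317, 1025 and 772 counts in WT and 41, 27 and 41 in the libraries labelled IRF8KO. Every WT library was far above every other library. Fcrl1 fell from 80.2 ± 23.3 to 4.48 ± 2.08 CPM (SD, n = 3). Its log2 fold change was -4.19 with an SE of 0.42 and an edgeR adjusted p of 5.3e-05 (quasi-likelihood test), and was called in all 15 alternative settings. Cd22, an inhibitory sialic acid receptor of B cells that microglia also make, fell from 18.2 ± 5.73 to 6.36 ± 2.23 CPM, with a log2 fold change of -1.52 (SE 0.45; edgeR adjusted p = 0.036). That call was lost when any library other than IRF8KO replicate 2 was left out, with edgeR adjusted p-values of up to 0.151. Cd72, an inhibitory C-type lectin, rose from 8.78 ± 0.757 to 38.7 ± 7.84 CPM. Its log2 fold change was 2.13 (SE 0.33, edgeR adjusted p = 9.9e-04), and it was called in all 15 settings. Of its exonic length 41.6% overlaps another gene, and reads that overlap both are set aside as ambiguous and not counted on Cd72.

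The plasma-cell list of 7 genes behaved in mixed ways. Tnfrsf17, which encodes the receptor BCMA, had 92, 180 and 160 counts in WT and 0 in every library labelled IRF8KO. It stood at 17.6 ± 4.66 CPM in WT (SD, n = 3) and was at least 144-fold lower in the other group, against a floor of 3 counts over that group (edgeR adjusted p = 8.0e-05). Jchain, the joining chain that plasma cells make for secreted IgM, had 0 counts throughout, and Mzb1 had 3 counts in 1 library labelled IRF8KO. Sdc1, the plasma-cell surface proteoglycan CD138, had 4 counts in WT replicate 1 and 11 in IRF8KO replicate 2. Of 4 tested genes 1 was called lower (25%, against 9.46% of all genes) and 0 higher (against 9.64%), and with so few genes nothing is read from this. Prdm1 (9.85 ± 5.89 against 3.29 ± 2.81 CPM), Derl3 and Irf4 (1.34 ± 0.926 against 6.66 ± 2.98 CPM; edgeR adjusted p = 0.0505) were not called.

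Genes of B-cell receptor signalling were read from a list of 33, of which 32 passed the filter. Of these, 8 (25%, against 9.46% of all genes) were called lower, 1 (3.1%, against 9.64%) was called higher and 23 were not called. The median log2 fold change was -0.78 beside -0.11 for all genes. In 34.4% of the 32 every WT library lay above every other library, against 17.9% of all genes. The count moved with single libraries: leaving out IRF8KO replicate 3 left 2 calls, leaving out IRF8KO replicate 1 left 4, leaving out WT replicate 2 left 5, and leaving out WT replicate 3 gave 17. The count over all genes moved in the same fits: without IRF8KO replicate 3, 1 of 32 list genes and 386 of 11440 genes were called lower, and without WT replicate 3, 16 of 32 and 1835 of 11953. Library size scaling alone gave 16 calls, and no filter on low counts gave 14.

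At the receptor-proximal step, the SRC-family kinases Fyn and Lyn were called lower. Fyn fell from 14.0 ± 2.65 to 1.33 ± 0.449 CPM (SD, n = 3; log2 fold change -3.40, SE 0.53; edgeR adjusted p = 0.0010) and was called in all 14 settings that could test it. Lyn, the main SRC kinase of the B-cell receptor, fell from 229 ± 81.0 to 86.3 ± 20.7 CPM (log2 fold change -1.41, SE 0.34; edgeR adjusted p = 0.013), a call lost without WT replicate 2, IRF8KO replicate 1 or IRF8KO replicate 3. Syk, the kinase that binds phosphorylated ITAMs, stood at 191 ± 13 against 180 ± 8.99 CPM with a log2 fold change of -0.08 (SE 0.26), and was not called. Plcg2, the phospholipase reached through BLNK and BTK, stood at 393 ± 117 against 252 ± 30.0 CPM and was not called (edgeR adjusted p = 0.158).

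Among the phosphoinositide 3-kinase genes and their readers, Pik3cd, the δ catalytic subunit, fell from 370 ± 56.9 to 178 ± 39.3 CPM (log2 fold change -1.06; edgeR adjusted p = 0.025). The regulatory subunit Pik3r5 fell from 222 ± 45.0 to 87.7 ± 36.3 CPM (log2 fold change -1.34; edgeR adjusted p = 0.016). Pik3r1, a regulatory subunit of the class IA kinases, fell from 54.0 ± 35.9 to 14.3 ± 5.44 CPM (log2 fold change -1.91, edgeR adjusted p = 0.034), a call kept in 10 of 15 alternative settings. Its groups overlapped: WT replicates 1 to 3 stood at 75.1, 74.3 and 12.5 CPM, and IRF8KO replicates 1 to 3 at 8.19, 18.7 and 15.9 CPM. The adaptor Dapp1, which binds the lipid product, fell from 63.2 ± 28.1 to 19.8 ± 3.60 CPM (log2 fold change -1.67; edgeR adjusted p = 0.0093). Rasgrp3, an exchange factor that activates RAS downstream of diacylglycerol, fell from 76.2 ± 24.9 to 15.0 ± 10.9 CPM (log2 fold change -2.33; edgeR adjusted p = 0.0053). Each of these 5 calls was lost in 1 or more fits that left out a library, all of them without IRF8KO replicate 3. Pik3ap1, an adaptor that recruits the kinase to the receptor complex, stood at 256 ± 15.1 against 156 ± 20.7 CPM and was not called (edgeR adjusted p = 0.078). Ifitm1, a small interferon-induced membrane protein, rose from 0, 2 and 0 counts in WT to 59, 63 and 136 (edgeR adjusted p = 3.9e-04).

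The myeloid ITAM adaptors went the other way. Fcer1g rose from 1109 ± 391 to 3737 ± 787 CPM (log2 fold change 1.75, SE 0.37; edgeR adjusted p = 0.0071), a call lost without IRF8KO replicate 3. Tyrobp rose from 2224 ± 1052 to 6972 ± 1238 CPM (log2 fold change 1.65, SE 0.41; edgeR adjusted p = 0.016), a call lost in 4 of the 6 fits that left out a library.

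**Figure D3:**
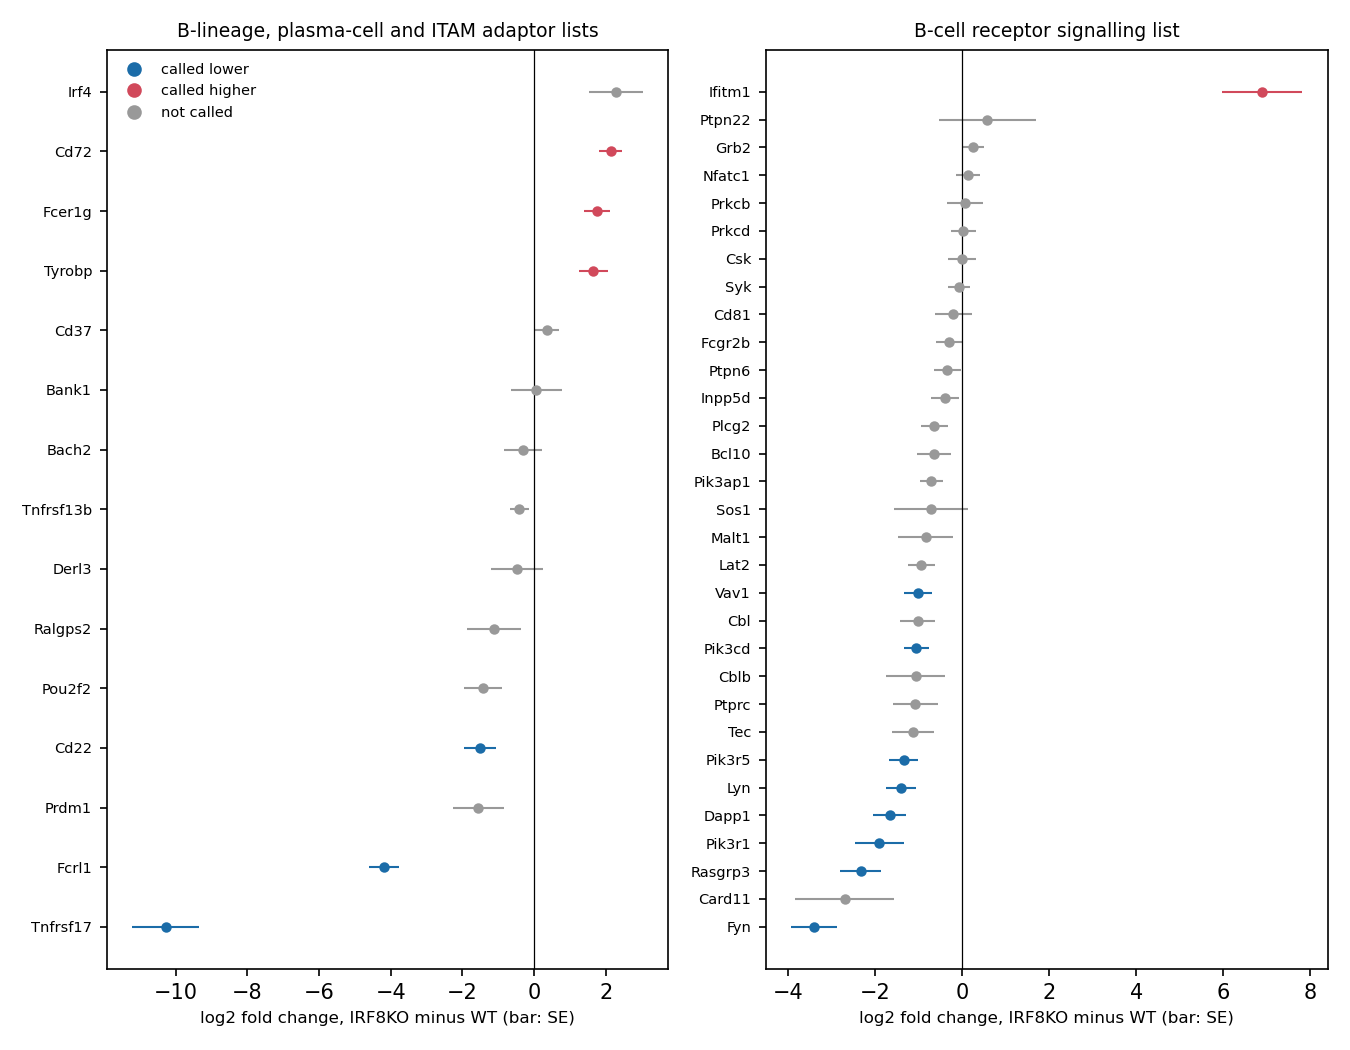
Log2 fold change (IRF8KO minus WT) of tested genes of the B-lineage, plasma-cell and ITAM adaptor lists, left, and of the B-cell receptor signalling list, right, with bars of 1 SE; blue and red mark calls. Fcrl1, Tnfrsf17 and Fyn lie farthest to the left among called genes and Ifitm1 farthest to the right; the fitted value of Tnfrsf17 depends on the prior count, since its IRF8KO counts are all 0.

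Markers of other cells moved with the groups as well, and their part in the values above was not tested. T and NK cell markers summed to 0 to 1.63 CPM in WT and 3.86 to 5.75 CPM in the other group, most of it Cd4, with Cd3e, Cd3g and Cd8a at 0 everywhere. Lck had 22 against 11 counts in total and Nkg7 0 against 5. Plasmacytoid dendritic cell markers summed to 79.2 to 100 against 259 to 329 CPM, with Klk1 and Cd209d at 0. Of 5 tested genes 2 (40%, against 9.64% of all genes), Cox6a2 and Bst2, were called higher and 3 were not called. Tcf4 (24.4 against 18.1 CPM), Pacsin1 (5.27 against 2.20 CPM) and Ccr9 (6 against 0 counts) had the higher value in WT, and Smim5 (0.367 against 2.17 CPM, not called) the lower. Conventional dendritic cell markers summed to 45.0 to 54.9 against 113 to 135 CPM, with Clec9a, Cd209a and Ccr7 at 0. The most abundant, Wdfy4 and Zbtb46, were 2 of 3 tested genes (66.7%, against 9.64% of all genes) and were called higher. Itgae (3.35 against 1.08 CPM, every WT library above every other library, not called), Xcr1 (10 against 3 counts) and Flt3 (31 against 19 counts) had the higher value in WT. Border macrophage markers, led by Stab1, Pf4 and Ms4a7, summed to 609 to 834 against 3707 to 4911 CPM, with Lyve1 at 0. All 7 that were tested were called higher (against 9.64% of all genes). Neutrophil markers reached 360 CPM in IRF8KO replicate 2, where S100a8, Ngp and Camp had 1350, 883 and 650 counts, and at most 1.12 CPM elsewhere. The monocyte list was also highest in that library, at 42.1 CPM, with 386 counts on Chil3, 52 on Plac8 and 31 on Ly6c2. Its other genes, Ccr2 and Vcan, had 0 counts there, and Ccr2 had 13 counts in WT against 3 in the other group. Red blood cell genes ranged from 0 to 57.6 CPM in WT and from 53.8 to 437 CPM in the other group, most of it Hbb-bs, Hba-a1 and Hbb-bt, and were highest in replicate 3 of each group. The microglial list summed to 42385 to 72702 CPM in WT and 33888 to 47865 CPM in the other group, with Csf1r, Tmem119 and C1qa, none of them called, the most abundant. Of its 10 genes 4 (40%, against 9.46% of all genes) were called lower and 1 (10%, against 9.64%), Fcrls, higher (2622 to 6669 CPM). The Fcrls call was kept in 11 of 15 alternative settings and lost in some fits that left out a library. The purinergic receptor gene P2ry12 fell from 848 to 48.4 CPM, the chemokine receptor gene Cx3cr1 from 2631 to 589 CPM and Aif1 from 185 to 46.4 CPM. Sall1, a transcription factor of microglial identity, fell from 2904 counts to 0, at least 971-fold. IRF8KO replicate 2, which held the neutrophil transcripts, had 13.6 CPM of Ighm, against 20.5 and 18.9 in replicates 1 and 3. For Cd79b its 15.4 CPM lay close to the 15.8 CPM of replicate 3, and its 172 counts were the most of its group. A link with the neutrophil transcripts was not tested.

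**Figure D4:**
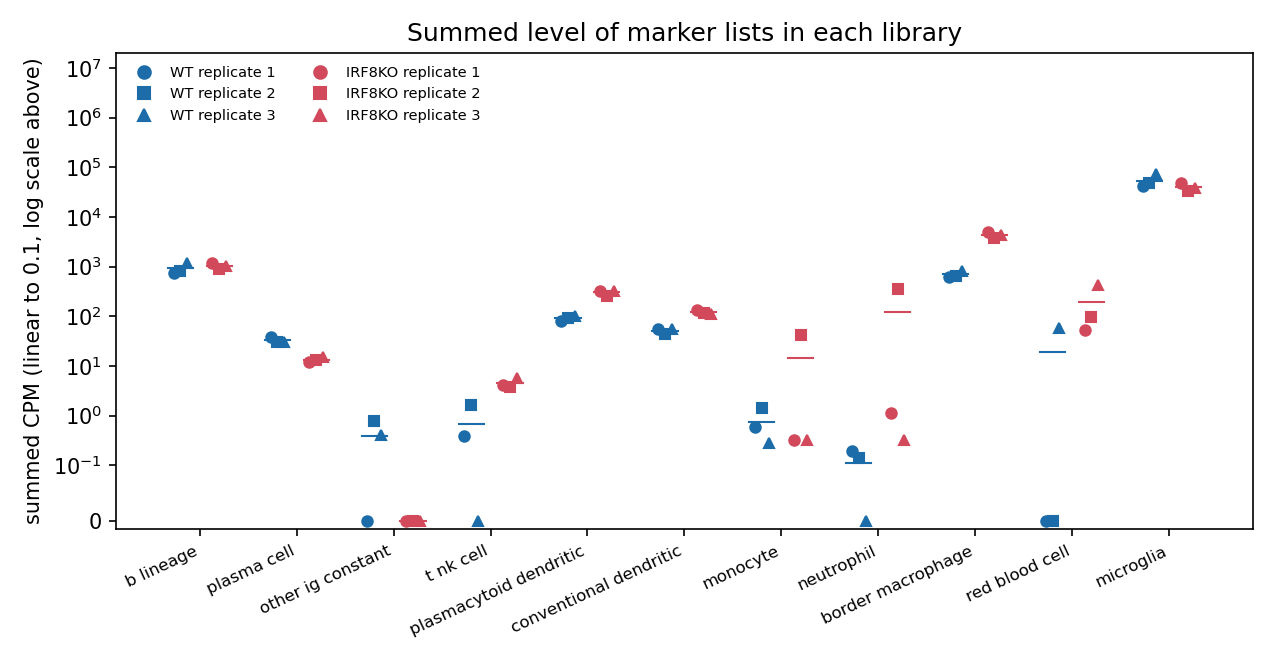
Summed CPM of each marker list in each library, on an axis linear to 0.1 and logarithmic above. Each symbol is 1 library (blue WT, red IRF8KO, shape by replicate) and each bar is the mean of 3; the B-lineage sum overlaps between the groups, while the border macrophage and dendritic lists are higher in all 3 libraries labelled IRF8KO.

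The nearest protein-coding genes on each side of Ighm, Cd79b, Blnk and Btk were mostly near 0. Tmem121 and Adam6b, on either side of Ighm, had 2 against 18 and 0 against 0 counts in total. Near Cd79b, Scn4a (3830 bases away) had 1 count in all, and Gh, the growth hormone gene (9476 bases away), had 700 counts in WT replicate 3 and 2142 in IRF8KO replicate 3 and 0 in the other 4 libraries. Cd79b stood at 65.0, 61.2 and 102 CPM in WT replicates 1 to 3. In IRF8KO replicates 1 to 3 it stood at 20.2, 15.4 and 15.8 CPM, so that replicate 3 was close to the lowest. Zfp518a, next to Blnk, had 38 against 13 counts and was not called, and Dntt, on the other side, had 0. Beside Btk, Timm8a1 (471 bases away) had 12 against 18 counts and was not tested, while Rpl36a (2084 bases away) rose from 4.86 ± 0.950 to 27.7 ± 11.9 CPM (edgeR adjusted p = 0.0020).

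The genes with the most similar profile were ranked by the root mean square difference of centred log2 CPM over the 6 libraries, a measure that rests on the contrast itself and is given as a description. For Cd79b they were Mlph (0.0615), Olfml2b (0.129), Slco2b1 (0.147), 2010008C14Rik (0.156) and Ap1b1 (0.161). For Ighm they were Duoxa1 (0.223), Gm16118 (0.259), Dmrtb1 (0.293), Unc5cl (0.316) and Mmp28 (0.333), all with 0 counts in the libraries labelled IRF8KO, so that the prior count sets their distance. Ighd was 7th in the list of Ighm and Cd79b was 291st, while Ighm was 7860th in the list of Cd79b. For Blnk the nearest were Hs2st1 (0.105), Cep95 (0.123), Ptges3, Spata13 and Fam118b, with Btk 438th, and for Btk they were Phf3 (0.161), Ap1g1, Trim13, Rufy3 and Ppil4, with Blnk 170th.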

How the data were processed

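RNA of sorted microglia was sequenced in 6 libraries, 3 WT and 3 IRF8KO, each from its own brain per the labels. The deposited files hold raw gene counts made by the authors, in the layout of STAR's gene table, which takes only reads with 1 mapped place. The submitters' processing notes name STAR 2.5.2b and the build mm10; the annotation release is not given in the sources used here. The libraries carry neither strand nor molecular identifiers, so the deposited counts that ignore strand were used and intervals cover counting error only. Reads outside genes (2.44% to 7.70% of uniquely mapped reads) were kept out of library sizes.

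Of 49585 identifiers, 49326 were matched to GENCODE M21 (GRCm38) for symbols, positions and exonic length. Counts were tested in R 4.3.3 with edgeR 4.0.16: its default expression filter at a minimum count of 10, TMM factors, and a quasi-likelihood test on genotype alone; the script was tested on simulated data first. Calls took an adjusted p (Benjamini-Hochberg, over 11041 genes) under 0.05. Alternatives were DESeq2 1.42.0, limma-voom (limma 3.58.1), other scalings and filters, each stranded count, a replicate block and leaving out each library. Groups at 0 were set to a floor of 3 counts over the group.

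The 9 genes, the lists and the tests were chosen with earlier results of these data known. Named besides the 9 were up to 6 called genes per direction with the smallest p in the B-lineage and receptor signalling lists, fixed B-lineage markers, any counted gene of the small lists, the 3 most abundant genes of each other-cell list, the nearest neighbours and the 5 nearest profiles. Syk, Plcg2, Pik3ap1, Pik3r1, Cd37, Vpreb1, Blk, Rag1, the immunoglobulin segments, and other-cell markers beyond the 3 most abundant were named outside that rule, after their values were seen. Some genes of the lists are not reported here.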

Additional observations from a re-analysis of the deposited data

How the results depend on the processing

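Over 15 alternative settings the log2 fold change of Ighm ranged from -5.55 to -4.82, that of Cd79b from -2.62 to -1.85, that of Blnk from -1.60 to -0.73 and that of Btk from -1.43 to -0.46. The fitted value of Ighd ranged from -9.11, without IRF8KO replicate 3, which held the 1 count of its group, to -6.46 over 14 settings, and it depends on the prior count. These ranges describe genes chosen on this contrast and are no independent support. Scaling by library size alone moved the median over all tested genes to -0.61 on the log2 scale, and 25.4% of its 2559 calls were higher, against 50.5% of 2109. All-gene calls numbered 910 to 4003 when 1 library was left out, the highest without WT replicate 3. The receptor signalling count was 9, against 16 with library size alone, 14 with no filter on low counts and 2 to 17 when 1 library was left out. The B-lineage count was 3 and stayed between 2 and 4.

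Replicate numbers were not taken as pairs, since same-numbered deviations correlated at -0.26, 0.33 and 0.11. Both replicate 3 libraries alone held Gh and had the highest red blood cell sums of their groups, and whether that number marks a shared handling was not tested. A replicate block gave 2353 calls in all, 9 receptor signalling genes and 3 B-lineage genes. Depth limits the genes at 0: fewer than 3 counts in a group could not be told from none. WT replicate 1 had the fewest counts, 3658917, and its shares are the least precise of its group.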
